A study of Mus musculus with 6 samples.

Results

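The genes described here are 39 genes of the DNA damage checkpoint and of DNA repair, covering homologous recombination, the Fanconi anemia pathway, checkpoint signalling, mismatch repair and base excision repair. They were taken by gene symbol from a table of read counts with 25965 rows. Of the 39 genes, 38 had a row under their current symbol and Rad9a had one under its older symbol Rad9. RNA had been sequenced from 6 mouse cell lines that all carried BCR-ABL, the fusion kinase of the Philadelphia chromosome, and that differed in Cdk6, a kinase that pairs with D-type cyclins in G1. The 3 KO lines (KO1, KO2 and KO3) had been electroporated with a Cas9-GFP plasmid expressing guide RNAs against CDK6, whose name carries the suffix hCDK6del, and the labels do not say what its h stands for. The 3 WT lines (WT1, WT2 and WT3) are labelled Cdk6 wild type, and the protocol describes the same plasmid without guides as the control. GFP-positive cells of both kinds were sorted and grown out from single cells, and loss of CDK6 was checked by Western blot, per the labels' protocols, so each library stands for 1 outgrown line kept in RPMI medium with no further treatment. Nothing in the labels says that the lines of a group came from separate starting cultures, so the tests measure the spread between these lines.

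Homologous recombination repairs a broken chromosome by copying the sister chromatid, after the ends are cut back and the BRCA proteins act on the exposed strands, and the Fanconi proteins hand crosslinked DNA at stalled forks to the same machinery. The kinases ATM and ATR sense breaks and exposed single strands and signal through CHK2 and CHK1 to halt the cell cycle, mismatch repair corrects copying errors, and base excision repair removes damaged or foreign bases such as uracil. Much of this machinery works in S and G2 phase, and several of its genes are known targets of the E2F factors, which the retinoblastoma protein holds back until CDK4 and CDK6 phosphorylate it.

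Values are given as counts scaled to a common library size (CPM), with library sizes adjusted by the trimmed mean of M values (TMM). The smallest library, KO1, had 17859519 counts and the largest, WT1, had 24108563, and the least abundant of the 39 genes still had at least 102 counts in every library. On principal component 1 of log2 CPM, with 68.6% of the variance, KO2 was at 89.1 and WT2 at 12.8, against -30.7 to -22.6 for the other 4 libraries, so values without KO2 are also given below. The targeted transcript, Cdk6, lay at 41.3 CPM in KO1, 75.2 in KO2 and 38.97 in KO3, against 39.7 in WT1, 45.7 in WT2 and 55.9 in WT3. Its log2 fold change was 0.14 ± 0.29 (SE; edgeR adjusted p = 0.90; two-sided exact permutation p = 0.9, where 0.1 is the smallest possible), and -0.22 without KO2. The RNA level therefore does not separate the labelled genotypes, and KO and WT name the libraries as labelled. A count over the whole gene does not show where an edit lies and does not check it. All 7 markers of the B lineage were above 1 CPM in every library, with a summed level of 3355.5 to 4589.7 CPM in KO and 4026.6 to 4187.8 CPM in WT. Of 6 T cell markers with a row Cd3e, Cd4 and Cd8a were at 0 throughout, and the summed level, nearly all of it Lck, was 0.462 CPM in KO2 and 46.7 to 81.1 CPM in the other libraries. Of 7 myeloid markers Elane was at 0, and the sum was 23.4 to 54.6 CPM in KO and 35.7 to 62.2 CPM in WT. Among them Lyz2, the lysozyme of myeloid cells, was at 12.2 to 15.9 CPM in KO and 27.2 to 38.9 CPM in WT (log2 fold change -1.27; edgeR adjusted p = 0.479; DESeq2 adjusted p = 1.15e-05, and 1.27e-10 without WT2 and KO2), while Itgam was at 28.9 CPM in KO1 and at most 4.76 CPM in the other libraries. The 5 stromal markers summed to at most 0.0513 CPM, with Col1a2, Col3a1, Dcn and Pdgfra at 0. The part of these differences in the results was not tested.

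Stretches of promoter are shown for 6 genes whose KO and WT libraries did not overlap, 3 with lower and 3 with higher values in KO. They are the 150 bases before the outermost start that RefSeq lists for the gene, 5′ to 3′ on the gene's strand, in build GRCm38.p6, and for Fancg 30 bases around a match inside the gene's listed span. Capitals mark matches to the letters searched on both strands, which were an E2F site (TTTCCCGC, TTTCGCGC, TTTGCCGC or TTTGGCGC), the CHR element bound by the DREAM complex (TTTGAA) and the CCAAT box (CCAAT, or ATTGG on the other strand).
Ung, chr5:114130216-114130365, plus strand: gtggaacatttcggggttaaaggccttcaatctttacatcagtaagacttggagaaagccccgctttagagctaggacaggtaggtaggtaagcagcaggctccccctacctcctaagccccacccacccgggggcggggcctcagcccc
Parp1, chr1:180568741-180568890, plus strand: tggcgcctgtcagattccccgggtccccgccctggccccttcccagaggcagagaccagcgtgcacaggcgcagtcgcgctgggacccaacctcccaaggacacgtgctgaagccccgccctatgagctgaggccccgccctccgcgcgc
Msh6, chr17:87974900-87975049, plus strand: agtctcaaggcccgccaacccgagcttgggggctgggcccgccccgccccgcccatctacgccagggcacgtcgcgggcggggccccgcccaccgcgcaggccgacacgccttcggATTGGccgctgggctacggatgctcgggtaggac
Rad1, chr15:10485868-10486017, plus strand: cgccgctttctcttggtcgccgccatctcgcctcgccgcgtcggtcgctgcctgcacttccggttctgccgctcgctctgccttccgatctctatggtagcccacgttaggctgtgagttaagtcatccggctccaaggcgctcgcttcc
Fancg, chr4:43010335-43010364, minus strand: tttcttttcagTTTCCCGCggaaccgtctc
Brip1, chr11:86201216-86201365, minus strand: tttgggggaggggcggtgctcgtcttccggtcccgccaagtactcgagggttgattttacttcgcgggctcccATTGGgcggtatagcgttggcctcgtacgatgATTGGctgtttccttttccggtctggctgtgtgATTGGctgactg
In the whole windows, from 250 bases before to 50 bases after a start, 32 of the 39 genes had an entry. An E2F site was found in 7 of these 32 (21.9%), against 2.6% of the 27025 genes with a window. A CCAAT box was found in 19 of the 32 (59.4%), against 41.1% of all genes, and a CHR element in 2 (6.25%), against 20.2%. The 27025 genes were not limited to those with enough counts or matched for base composition, and the part of either in these shares was not tested. No matches of different motifs overlapped. The 7 genes with an E2F site were Bard1, Brca2, Chek2, Fancg, Msh6, Rad51c and Topbp1. The site of Msh6, at positions 16 to 23 after the start, lies outside the stretch shown. The median log2 fold change of the 7 between KO and WT was 0.06, with 5 of 7 positive. That of the 25 genes without an E2F site was 0.07, with 18 positive. A match is a description of these letters and not a binding site.

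The first question was which of the 39 genes differed between KO and WT. By edgeR's quasi-likelihood test on all 10896 genes with enough counts, in which all 39 were included, 0 genes passed an adjusted p of 0.05 (0.0% of all genes) and the adjusted p of the 39 ran from 0.479 to 0.987. By DESeq2 2 of the 39 passed, Ung lower and Rbbp8 higher in KO, where 1.94% of all genes with an adjusted p did. At an unadjusted edgeR p under 0.05 there were 5 of the 39 higher in KO (4.35% of all genes) and 1 lower (5.1% of all genes). The median log2 fold change of the 39 was 0.08, against 0.01 over all genes tested. Of the 39 values 29 were positive and 10 negative, against 5748 and 5148 over all genes tested. By library, the median of the 39 relative to the WT mean on the log2 scale was 0.01 in KO1, 0.17 in KO2 and 0.14 in KO3, against -0.01 to 0.02 in the WT libraries.

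In 7 of the 39 genes the lowest KO library exceeded the highest WT library, which held for 8.58% of all genes tested. In 4 the highest KO library was under the lowest WT library, which held for 11.0% of all genes. Without KO1 the groups were apart in 20 of the 39 genes in place of 11 (51.3%, against 30.8% of all genes). Without KO2 they were apart in 15 (38.5%, against 41.5% of all genes). Without both WT2 and KO2 they were apart in 23 (59.0%, against 53.7% of all genes). With libraries left out, fewer libraries have to be apart. The median coefficient of variation of the 39 genes was 12.6% among the KO lines and 4.73% among the WT lines, and over all genes it was 16.7% and 7.43%.

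**Figure D1:**
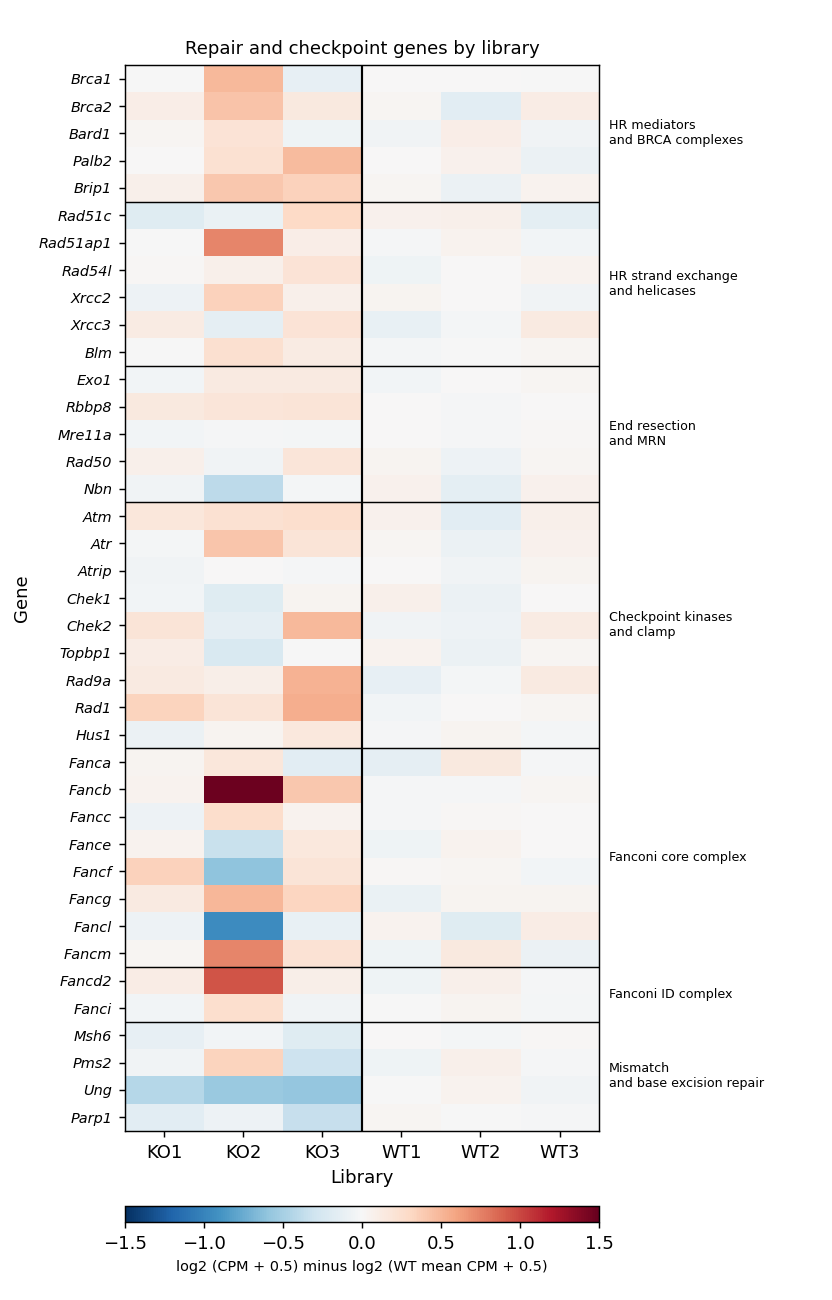
Level of each of the 39 genes (rows, grouped by role) in each library (columns, KO left of WT) as the log2 ratio to the WT mean, with 0.5 CPM added. The WT columns are pale throughout, Ung is lower in all 3 KO columns, and the strongest single values are in KO2, at Fancb, Fancd2, Fancm and Rad51ap1 (higher) and Fancl and Fancf (lower).

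Among the genes of mismatch and base excision repair Ung stood out. It encodes uracil-DNA glycosylase, which removes uracil from DNA and is also used in antibody gene diversification. Ung (chromosome 5, 114130366 to 114139321) lay at 67.7 CPM in KO1, 62.3 in KO2 and 60.8 in KO3, against 91.2 in WT1, 95.03 in WT2 and 88.4 in WT3. Every KO line was thus lower than every WT line, and the 3 KO lines were close to each other. The stretch shown above before its start held none of the letters searched, which describes that stretch alone. The means were 63.6 ± 3.61 CPM in KO and 91.5 ± 3.35 CPM in WT (SD, n = 3 each), a difference of -30.5% of the WT mean. The log2 fold change was -0.52 with an SE of 0.07 and a 95% interval of -0.70 to -0.35 (edgeR adjusted p = 0.479; DESeq2 adjusted p = 1.27e-06). The exact permutation p (two-sided) was 0.1, and 3 lines against 3 cannot give a smaller one. Without KO2 the value was -0.50, and in DESeq2 without WT2 and KO2 it was -0.48 with an adjusted p of 0.00879, a fit in which 2.89% of all genes passed and Ung was the only one of the 39. In these bulk samples fewer cells in a given phase and less RNA per cell cannot be told apart.

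Parp1, the most abundant of the 39 per kilobase of transcript, encodes the enzyme that marks strand breaks with poly-ADP-ribose. It lay at 831.1 CPM in KO1, 879.7 in KO2 and 728.7 in KO3, against 940.4 in WT1, 918.6 in WT2 and 913.7 in WT3. The groups did not overlap, and the log2 fold change was -0.18 ± 0.08 (edgeR adjusted p = 0.543; DESeq2 adjusted p = 0.454). Msh6, a subunit of the complex that finds mismatches, was at 190.7 CPM in KO1, 201.1 in KO2 and 183.4 in KO3, against 208.9 in WT1, 202.3 in WT2 and 210.6 in WT3. Its groups were apart by little more than 1 CPM between KO2 and WT2, with a log2 fold change of -0.11 ± 0.06. Pms2, the endonuclease subunit that acts after mismatch recognition, was at 59.1 CPM in KO1, 77.5 in KO2 and 49.6 in KO3, against 58.9 in WT1, 65.0 in WT2 and 60.7 in WT3. Here KO2 was the highest library and KO3 the lowest, and the log2 fold change of 0.01 turned to -0.17 without KO2.

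**Figure D2:**
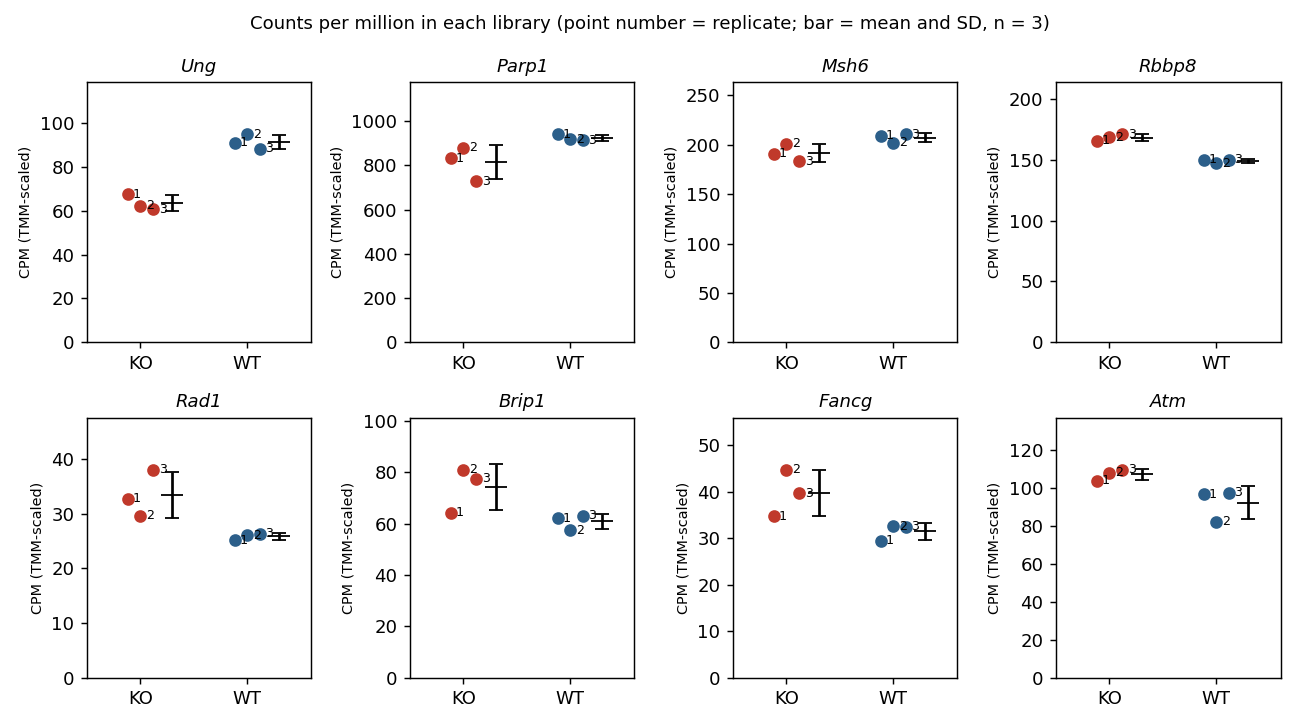
CPM (TMM-scaled) of 8 genes in each library, KO left of WT, with the replicate number beside each point and the mean with its SD (n = 3) as a bar. Ung, Parp1 and Msh6 are lower and Rbbp8, Rad1, Brip1, Fancg and Atm higher in all 3 KO lines.

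End resection is begun by the MRN complex, of MRE11, RAD50 and NBS1, with its cofactor CtIP, and is extended by the exonuclease EXO1. Rbbp8, the gene for CtIP, lay at 165.5 CPM in KO1, 168.4 in KO2 and 170.9 in KO3, against 149.9 in WT1, 147.2 in WT2 and 149.9 in WT3. All KO lines were higher, by little but with an SD of 2.70 CPM in KO and 1.55 CPM in WT (n = 3 each). The log2 fold change was 0.18 with an SE of 0.05 and a 95% interval of 0.05 to 0.30 (edgeR adjusted p = 0.482; DESeq2 adjusted p = 0.0363). The two-sided exact permutation p was 0.1, the smallest possible, and without WT2 and KO2 DESeq2 no longer called the gene (log2 fold change 0.17, adjusted p = 0.412). Mre11a, the nuclease of the complex, had the narrowest relative range of the 39 over the 6 libraries, at 106.8 to 108.7 CPM in KO and 108.8 to 111.6 CPM in WT, and a log2 fold change of -0.03 (95% interval -0.16 to 0.10). Nbn, the gene for NBS1, lay at 63.8 CPM in KO1, 50.3 in KO2 and 64.8 in KO3, against 69.6 in WT1, 60.1 in WT2 and 69.4 in WT3, where both lines numbered 2 were the lowest of their group. Rad50, at 137.5 to 161.6 CPM in KO and 134.9 to 147.2 CPM in WT, and Exo1, at 93.7 to 106.1 CPM in KO and 93.7 to 98.8 CPM in WT, overlapped between the groups. Without KO2 the log2 fold change of Nbn was -0.04 in place of -0.15, and that of Rad50 was 0.14 in place of 0.07.

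The BRCA complexes are made of BRCA1 with its partner BARD1, the bridge PALB2, its partner BRCA2 and the helicase BRIP1. All 5 genes had positive log2 fold changes, from 0.06 for Bard1 to 0.29 for Brip1, with a median of 0.23, and without KO2 the median was 0.13. Brip1 was at 64.3 CPM in KO1, 81.0 in KO2 and 77.6 in KO3, against 62.2 in WT1, 57.5 in WT2 and 63.1 in WT3. Its KO lines lay above the WT lines, KO1 by about 1 CPM, with a log2 fold change of 0.29 ± 0.11 (edgeR adjusted p = 0.521; DESeq2 adjusted p = 0.333). Brca1 was at 133.7 CPM in KO1, 188.3 in KO2 and 122.7 in KO3, against 134.0 in WT1, 134.7 in WT2 and 133.1 in WT3. Its WT lines were nearly equal, and among the KO lines KO2 was higher and KO3 lower than all of them. The log2 fold change of 0.15 was -0.06 without KO2. Brca2 lay at 92.3 CPM in KO1, 116.3 in KO2 and 95.2 in KO3, against 87.9 in WT1, 77.2 in WT2 and 93.6 in WT3, so that KO1 and WT3 overlapped. Its log2 fold change was 0.23, and 0.13 without KO2. Bard1 was at 63.9 CPM in KO1, 71.9 in KO2 and 59.8 in KO3, against 60.2 in WT1, 66.9 in WT2 and 60.2 in WT3, with the lines numbered 2 highest in both groups and a log2 fold change of -0.01 without KO2. Palb2 was at 19.0 to 26.3 CPM in KO and 17.8 to 19.8 CPM in WT.

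RAD51C, XRCC2, XRCC3, RAD51AP1 and the motor RAD54L take part in strand exchange, and BLM is a helicase that dissolves joined strands. Their 6 log2 fold changes were all positive, from 0.03 for Rad51c to 0.31 for Rad51ap1, with a median of 0.11. Groups that did not overlap were found for 0 of the 6, against 19.6% of all genes tested. Rad51ap1 was at 78.5 CPM in KO1, 131.4 in KO2 and 84.6 in KO3, against 77.8 in WT1, 82.2 in WT2 and 76.9 in WT3. KO2 alone was far above the others, and the log2 fold change was 0.31 ± 0.21 with KO2 and 0.05 without it. Rad51c, the least abundant of the 39 per kilobase of transcript, was at 10.8 CPM in KO1, 11.4 in KO2 and 15.2 in KO3, against 12.9 in WT1, 12.9 in WT2 and 11.0 in WT3. Its highest and its lowest value were both in KO lines. Without KO2 its log2 fold change of 0.03 was 0.09. Rad54l had a log2 fold change of 0.10 (0.12 without KO2), Blm of 0.12 (0.07), Xrcc2 of 0.13 (0.01) and Xrcc3 of 0.07 (0.17).

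Checkpoint signalling begins at ATM, which senses breaks, and at ATR with its partner ATRIP, which senses single strands, and the ring clamp of RAD9A, RAD1 and HUS1 with TOPBP1 activates ATR. Rad1 was at 32.7 CPM in KO1, 29.7 in KO2 and 38.1 in KO3, against 25.2 in WT1, 26.1 in WT2 and 26.3 in WT3. All KO lines were higher, and the log2 fold change was 0.37 with an SE of 0.12 and a 95% interval of 0.08 to 0.67 (edgeR adjusted p = 0.495; DESeq2 adjusted p = 0.185) and 0.46 without KO2. Its clamp partner Rad9a lay at 49.7 CPM in KO1, 47.9 in KO2 and 65.1 in KO3, against 41.4 in WT1, 44.3 in WT2 and 49.4 in WT3, and Hus1 at 59.6 to 71.0 CPM in KO and 62.2 to 65.2 CPM in WT. The clamp genes thus had log2 fold changes of 0.37, 0.27 and 0.04, with the 95% intervals of Rad9a (-0.10 to 0.63) and Hus1 (-0.17 to 0.26) including 0.

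Atm was at 103.7 CPM in KO1, 107.8 in KO2 and 109.4 in KO3, against 96.6 in WT1, 82.1 in WT2 and 97.3 in WT3. The groups did not overlap, with WT2 the lowest library, and the log2 fold change was 0.22 ± 0.09 (edgeR adjusted p = 0.529; DESeq2 adjusted p = 0.384) and 0.14 without WT2 and KO2. Atr was at 80.3 CPM in KO1, 109.5 in KO2 and 94.2 in KO3, against 83.7 in WT1, 77.1 in WT2 and 85.8 in WT3, with KO1 inside the WT range. Its log2 fold change was 0.20, and 0.09 without KO2. The effector kinase genes had log2 fold changes of opposite sign over all 6 libraries, but both 95% intervals included 0 and both values were positive without KO2. Chek1 lay at 68.3 CPM in KO1, 61.9 in KO2 and 72.4 in KO3, against 74.2 in WT1, 66.2 in WT2 and 70.2 in WT3, with a log2 fold change of -0.06 (95% interval -0.27 to 0.16), and 0.01 without KO2. Chek2 was at 31.8 CPM in KO1, 25.2 in KO2 and 39.2 in KO3, against 26.6 in WT1, 26.4 in WT2 and 30.2 in WT3, with KO2 the lowest and KO3 the highest library. Its log2 fold change was 0.21, and 0.36 without KO2. Atrip, at 54.3 to 56.2 CPM in KO and 54.3 to 58.0 CPM in WT, and Topbp1, at 351.6 to 446.4 CPM in KO and 388.2 to 420.9 CPM in WT, had log2 fold changes of -0.02 and -0.04, and -0.03 and 0.06 without KO2.

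**Figure D3:**
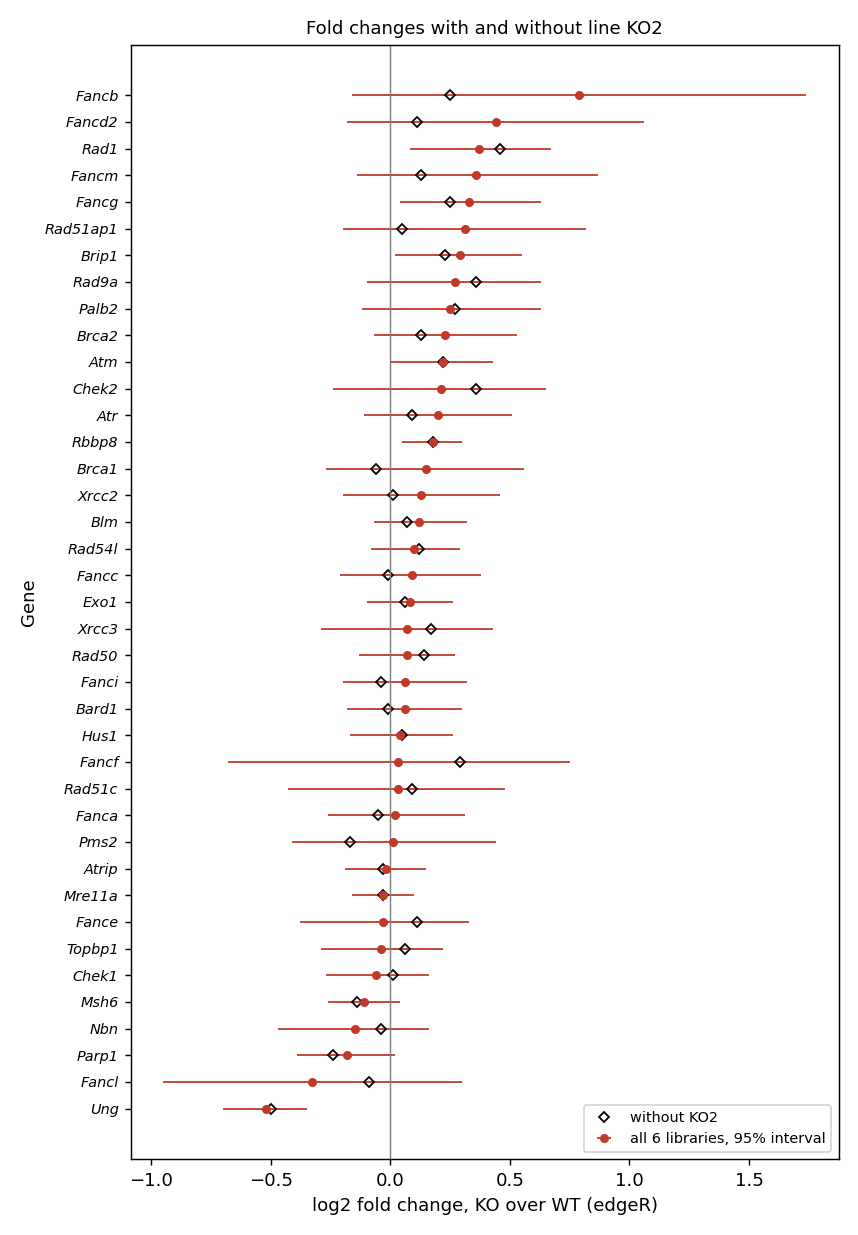
log2 fold change of each of the 39 genes, KO over WT, by edgeR over all 6 libraries (filled points with 95% intervals) and without KO2 (open diamonds). The intervals of Ung, Rad1, Fancg, Brip1, Rbbp8 and Atm lie to 1 side of 0, and the widest ones, at Fancb, Fancf, Fancl and Fancd2, belong to genes whose value moves by over 0.2 when KO2 is left out.

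The Fanconi genes held the 4 widest intervals of the 39. The core complex, a ubiquitin ligase in which FANCL is the catalytic subunit, is encoded by Fanca, Fancb, Fancc, Fance, Fancf, Fancg and Fancl, and the translocase FANCM brings it to DNA. Of these 8 genes 6 had positive log2 fold changes, and their median was 0.06, or 0.12 without KO2. Fancg was at 34.7 CPM in KO1, 44.7 in KO2 and 39.6 in KO3, against 29.4 in WT1, 32.5 in WT2 and 32.5 in WT3. Its KO lines were all higher, and the log2 fold change was 0.33 ± 0.12 (95% interval 0.04 to 0.63; edgeR adjusted p = 0.507; DESeq2 adjusted p = 0.283). Fancb, which lies on the X chromosome, was at 18.7 CPM in KO1, 50.9 in KO2 and 24.0 in KO3, against 17.8 in WT1, 17.85 in WT2 and 18.4 in WT3. The order of KO over WT held in every library, but KO1 exceeded the highest WT line by under 1 CPM while KO2 was far above all. The log2 fold change was 0.79 ± 0.38 (edgeR adjusted p = 0.567) and 0.25 without KO2. Fancm was likewise highest in KO2, at 45.3 CPM in KO1, 74.5 in KO2 and 52.0 in KO3, against 42.4 in WT1, 49.2 in WT2 and 41.9 in WT3, and its log2 fold change of 0.36 ± 0.20 was 0.13 without KO2.

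Fancl went the other way in KO2. It was at 39.7 CPM in KO1, 21.5 in KO2 and 38.5 in KO3, against 43.4 in WT1, 36.9 in WT2 and 44.9 in WT3, and its log2 fold change of -0.33 ± 0.25 was -0.09 without KO2. Fancf was at 10.5 CPM in KO1, 5.24 in KO2 and 9.41 in KO3, against 8.31 in WT1, 8.37 in WT2 and 7.92 in WT3. KO2 was the lowest library and the other 2 KO lines the highest, so its log2 fold change was 0.03 with KO2 and 0.29 without it. Fance also had its lowest value in KO2, at 32.2 CPM against 38.7 to 42.2 CPM in WT, and its log2 fold change of -0.03 was 0.11 without KO2. Fanca and Fancc had log2 fold changes of 0.02 and 0.09, and -0.05 and -0.01 without KO2. The exons of Fancf and Fancl overlap those of Gas2 and Vrk2 on the opposite strand, and since no strand setting is given for the counts, reads of such pairs could not be told apart. Of the 39 genes 20 share some exon bases with another annotated gene, and in 7, among them Fanca, Fancc and Fanci, the overlap takes up at least 10% of the exon bases.

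The core complex ubiquitinates FANCD2 and FANCI, the pair that clamps onto DNA at the crosslink. Fancd2 was at 103.7 CPM in KO1, 184.8 in KO2 and 102.1 in KO3, against 92.0 in WT1, 101.2 in WT2 and 95.04 in WT3. KO3 lay less than 1 CPM above WT2, and the log2 fold change of 0.44 ± 0.25 (edgeR adjusted p = 0.613) was 0.11 without KO2. Fanci was at 68.4 CPM in KO1, 84.3 in KO2 and 67.7 in KO3, against 70.1 in WT1, 72.2 in WT2 and 68.9 in WT3, so KO1 and KO3 were lower than every WT line and KO2 higher. Its log2 fold change of 0.06 was -0.04 without KO2.

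The second question was how far line KO2 set these values, and whether the genes near each of the 39 on the chromosome were shifted in the same way. KO2 was the highest of the 6 libraries in 16 of the 39 genes (41.0%) and the lowest in 8 (20.5%), and over all genes it was the highest in 31.1% and the lowest in 33.5%. KO3 was the highest in 13 (33.3%, against 22.9% of all genes) and the lowest in 8 (20.5%, against 22.7%). KO1 was the highest in 2 (5.13%, against 13.6%) and the lowest in 5 (12.8%, against 12.7%). The median log2 fold change of the 39 was 0.08 with KO2 and 0.07 without it. A log2 ratio to the WT mean of at least 0.5 in size was found for 7 of the 39 in KO2 (27.1% of the 9157 genes with a location and 5 or more CPM on average, with 0.5 CPM added to both values), for 0 in KO1 (7.46% of all) and for 3 in KO3 (12.6% of all). The 7 in KO2 were Fancb, Fancd2, Fancm and Rad51ap1, which were higher, and Fancl, Fancf and Ung, which were lower. Fancg lay just inside the limit, at 0.50, and with nothing added it passed and the count was 8. The 3 in KO3 were Rad1 and Rad9a, which were higher, and Ung.

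Each gene was set beside the genes within 5 Mb of it, by the log2 ratio of KO2 to the WT mean. On chromosome 6 the neighbours were raised in KO2 as well: Fancd2 was at 0.94 and its 44 neighbours had a median of 0.68, and Rad51ap1 was at 0.73 where its 53 neighbours had a median of 0.51. Of these neighbours 13 and 18 had a higher ratio than the gene itself. Fancc on chromosome 13 was at 0.27, below the median of 0.55 of its 30 neighbours. The other genes beyond 0.5 in size, and Brca1 just inside it, had neighbours with medians near 0 or of the opposite sign. Fancb was at 1.47 and its 21 neighbours had a median of 0.07, Fancm was at 0.74 and its 19 neighbours at 0.11, and Brca1 was at 0.49 and its 131 neighbours at 0.04. Fancl was at -0.94 while its 28 neighbours had a median of 0.01, and Fancf was at -0.60 while its 14 neighbours had a median of 0.31. Ung was at -0.55 in KO2 where its 72 neighbours had a median of 0.04, and 69 of them had a higher ratio. Rbbp8 on chromosome 18 lay in a stretch that was lower in KO2. It was at 0.18 in KO2 where its 19 neighbours had a median of -0.52, with 0 of the 19 above it. In KO1 and KO3 the neighbours of Rbbp8 had medians of 0.11 and 0.07 and the gene itself was at 0.15 and 0.20. These are values of 1 line with no replicate, and no test was made on them.

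**Figure D4:**
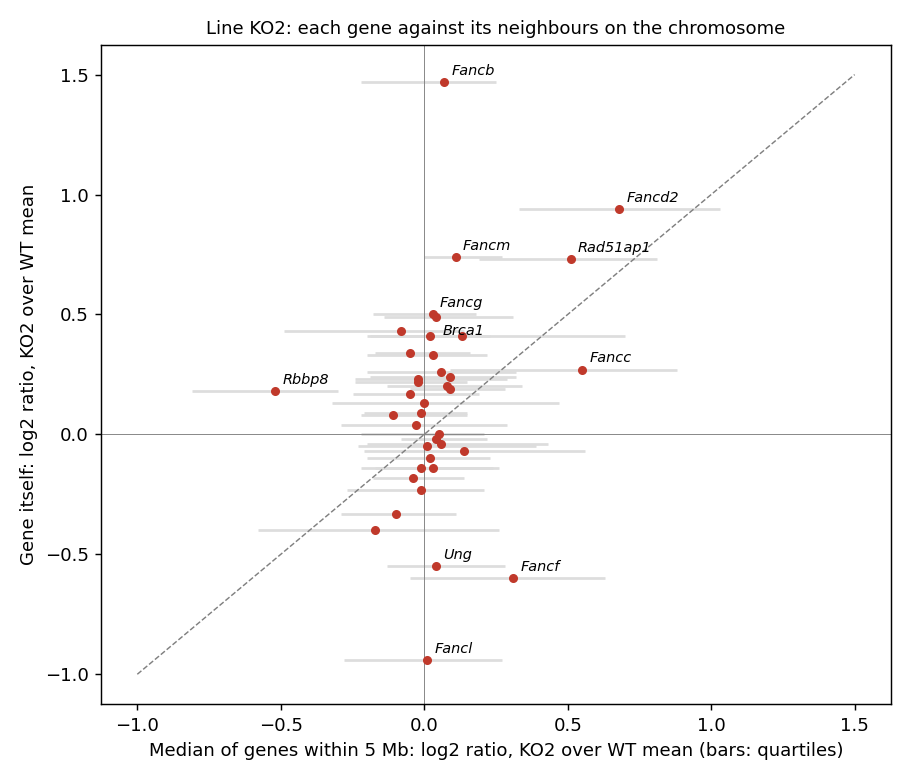
log2 ratio of KO2 to the WT mean for each of the 39 genes (y axis) against the median of the genes within 5 Mb (x axis), with grey bars for the quartiles of the neighbours and a dashed line where both are equal. Fancd2, Rad51ap1 and Fancc have raised neighbours and Rbbp8 lowered ones, while Fancb and Fancm (higher) and Fancl, Fancf and Ung (lower) have neighbours near or above 0.

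The third question was what the remaining genes of DNA repair did. In 6 further lists with 100 genes in the table, 99 had enough counts. Of these 60 had positive and 39 negative log2 fold changes (5748 and 5148 over all genes tested). The median was 0.08, as for the genes above. By edgeR 0 of the 99 passed. Of all genes with an adjusted p DESeq2 called 1.94%, with 79 higher and 139 lower in KO. Of the 99 it called 3, all lower in KO. These were Pcna, the sliding clamp of replication that also serves mismatch repair, Lig1, the ligase that seals replicated and repaired strands, and Tipin, a fork protection factor of the ATR pathway. Pcna lay at 358.7 CPM in KO1, 365.7 in KO2 and 367.6 in KO3, against 433.1 in WT1, 474.4 in WT2 and 431.4 in WT3, with a log2 fold change of -0.29 ± 0.06 (edgeR adjusted p = 0.479; DESeq2 adjusted p = 0.00134). Lig1 lay at 422.5 CPM in KO1, 411.0 in KO2 and 408.1 in KO3, against 472.5 in WT1, 490.0 in WT2 and 493.6 in WT3, with a log2 fold change of -0.23 ± 0.05 (edgeR adjusted p = 0.479; DESeq2 adjusted p = 0.000446). As with Ung, the KO lines of both genes were lower than every WT line and close to each other. Without WT2 and KO2 DESeq2 called 2.89% of all genes. It still called Pcna (adjusted p = 0.0277) but not Lig1 (0.0998) or Tipin (0.321). It also called Neil1 higher (0.00031), Xrcc1 higher (0.0476) and Rad23b lower (0.0399). Neil1, a glycosylase for oxidised bases that was picked out after its values were seen, was at 30.9 CPM in KO1, 16.0 in KO2 and 32.9 in KO3, against 16.2 in WT1, 16.3 in WT2 and 18.0 in WT3. KO2 lay at the WT level and the other KO lines above it, and with all libraries the log2 fold change was 0.66 (edgeR adjusted p = 0.534; DESeq2 adjusted p = 0.374).

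By list, the 29 other genes of recombination and break signalling had a median log2 fold change of 0.08 and 22 positive values, and the median was 0.16 without KO2. Wrn, a helicase, was at 77.6 CPM in KO1, 77.4 in KO2 and 69.0 in KO3, against 59.4 in WT1, 57.1 in WT2 and 62.7 in WT3, and Rad52, an annealing protein, had a log2 fold change of 0.70 ± 0.18. Neither passed (DESeq2 adjusted p = 0.0506 and 0.0612). The 16 other Fanconi and crosslink repair genes had a median of 0.12 with 11 positive, among them Rev3l (0.28), the catalytic subunit of a translesion polymerase, and Faap20 (0.24). In the 15 other checkpoint genes the median was -0.08 with 11 negative. Besides Tipin (-0.17 ± 0.05; DESeq2 adjusted p = 0.0473), Cdc25a, a phosphatase that CHK1 acts on, had a log2 fold change of -0.20 and groups that did not overlap. The 6 other mismatch repair genes, Pcna and Lig1 among them, had a median of 0.02, which was -0.10 without KO2. Of 19 other genes of base excision and single-strand break repair 18 were tested, with a median of 0.10 and 12 positive, among them Neil3 (0.20), a glycosylase, and the scaffold Xrcc1 (0.22). Nucleotide excision repair, with 15 genes, had a median of 0.11, which was -0.04 without KO2. Rad23b, which stabilises the damage sensor XPC, had a log2 fold change of -0.22, and Xpc itself of 0.13. With 1 library left out in turn, these medians ran from 0.09 to 0.16 for recombination, from 0.00 (without KO3) to 0.16 for Fanconi and crosslink repair, from -0.15 (without KO1) to -0.07 for the checkpoint, from -0.10 to 0.03 for mismatch repair, from 0.02 (without KO1) to 0.11 for base excision and from -0.04 to 0.14 for nucleotide excision repair.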

How the data were processed

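The authors deposited counts per gene symbol, 1 column per library, without normalization. Trim Galore, STAR and DESeq2 with build GRCm38 are named, per the submitters' processing notes. Tool versions, gene models, the counter and whether it used strand were not given in the sources used here. Counts were tested in R 4.3.3 with edgeR 4.0.16: TMM scaling, filterByExpr on genotype, and a robust quasi-likelihood F test of KO against WT over all 6 libraries, two-sided, with Benjamini-Hochberg adjustment over 10896 genes and a threshold of 0.05. On simulated counts the median log2 fold changes were required to lie near the changes put in, and no limit was set on the calls. DESeq2 1.42.0, limma-voom (limma 3.58.1), other scalings and filters, a replicate block and fits with libraries left out were alternatives. DESeq2 gave no adjusted p for 14753 rows. SE is the log2 fold change divided by the root of the F statistic. The 39 genes and the lists were chosen with earlier results of these data known, and all 39 are named. Values in every library were to be given for Cdk6, for genes with groups apart and an unadjusted edgeR p under 0.05, and for the highest and lowest log2 fold change of each role, with 2 genes of each further list named by smallest edgeR p. Library values of further genes were added after they had been seen. Older symbols, locations and promoter windows came from RefSeq GRCm38.p6, and exon overlap and the length of the longest principal transcript from GENCODE M21. KO and WT share replicate numbers. Deviations from the group means correlated at 0.361, 0.669 and 0.47 across genes within the pairs numbered 1, 2 and 3. KO3 with WT1, at 0.439, and KO1 with WT3, at 0.399, exceeded the first of these. Deviations sum to 0 within a group, so a shared shift of lines numbered 2 moves lines 1 and 3 the same way. Pairs 1 and 3 therefore cannot be told apart by these values. The numbers were treated as pairing in an alternative only. Depth leaves 3 counts worth 0.124 to 0.168 CPM, and intervals cover counting error and the spread between these lines.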

Additional observations from a re-analysis of the deposited data

How the results depend on the processing

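Of 16 alternatives, those in edgeR and limma-voom called 0 of the 39 genes and 0 of all genes, and DESeq2 called 2 of the 39 and 218 genes in all, or 1 and 340 without WT2 and KO2. The replicate block, fitted in edgeR alone, called 0 genes and moved Ung to -0.53 with an edgeR adjusted p of 0.528. At an unadjusted p under 0.05 it had 985 genes, against 1030 without it, 1041 in limma-voom and 1314 in DESeq2. Since edgeR called 0 genes without the block too, the block had no call to change. DESeq2 was not fitted with the block, so its calls were not examined under the pairing. The median log2 fold change of the 39 ran from 0.07 to 0.14 when 1 library was left out. The count of the 39 genes whose groups do not overlap was 11 (19.6% of all genes). With 1 library left out it ran from 10, as without WT1 (24.0% of all genes), to 20 without KO1 (30.8% of all genes). Without WT2 and KO2 it was 23 (53.7% of all genes), and 22 on DESeq2's scale (52.8% of all genes). In these fits fewer libraries have to be apart. With RLE size factors the count was 9 (19.4% of all genes). Ung kept a negative and Rbbp8 a positive log2 fold change in every alternative (-0.57 to -0.48 and 0.16 to 0.20), with edgeR adjusted p from 0.178 to 0.997 and from 0.209 to 0.997.

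Signs turned in 38 of 832 values, for 15 genes with a main value of at most 0.15 in size, none of them called; the cause was not tested. With library totals alone Atrip and Fance were at 0.00, in limma-voom Fancf was at -0.03 and Pms2 at -0.01, and with the replicate block they were at -0.02 and -0.01. Without WT2 and KO2, edgeR and DESeq2 gave -0.05 and -0.05 for Brca1, 0.02 and 0.01 for Topbp1, 0.14 and 0.14 for Fance, -0.02 and -0.03 for Fanci, -0.13 and -0.14 for Pms2 and -0.24 and -0.25 for Cdk6. With 1 library left out the ranges were -0.04 to 0.01 for Atrip, -0.01 to 0.12 for Bard1, -0.06 to 0.26 for Brca1, -0.22 to 0.31 for Cdk6, -0.11 to 0.01 for Chek1, -0.05 to 0.11 for Fanca, -0.01 to 0.17 for Fancc, -0.13 to 0.11 for Fance, -0.16 to 0.29 for Fancf, -0.04 to 0.12 for Fanci, -0.02 to 0.11 for Hus1, -0.17 to 0.15 for Pms2, -0.14 to 0.12 for Rad51c, -0.11 to 0.06 for Topbp1 and -0.01 to 0.17 for Xrcc3.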
